A study of Mus musculus with 2 samples.

Results

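The genes described here encode the voltage-gated, calcium-activated, inward-rectifying and K2P potassium channels, the voltage-gated sodium channels, and the subunits that assemble with them. They were taken by name, as every gene on the array whose symbol starts with Kcn, or with Scn followed by a digit. The family itself was chosen with earlier results of these data known. This rule found 109 of the 20433 genes that could be named on the array, 97 for potassium and 12 for sodium channels. A member counted as measured where at least 1 of its probes was well above background on at least 1 array, which held for 44 members (40.4%), against 69.9% of all named genes. The study compared 2 stable lines of the mouse chondrocyte line ATDC5. Lentiviral transduction had given 1 of them GFP, the fluorescent protein used as control, and the other HES1, a DNA-binding repressor induced by Notch signalling. Both lines were grown for 3 days in monolayer on 60 mm dishes, and total RNA of each was hybridised to 1 single-colour Agilent array. There were no replicates, so differences are given without p-values, and whether the lines are clones or pools is not given in the sources used here.

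Potassium channels open a pore that lets potassium leave the cell and so hold the membrane potential negative, while voltage-gated sodium channels let sodium in and drive fast depolarisation. The pore is formed by alpha subunits, and accessory subunits change how the pore opens, inactivates or reaches the membrane. In chondrocytes, potassium channels are known for setting the resting potential and for responses to calcium, stretch and osmotic load, whereas most members of these families are best known from neurons and muscle.

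The 2 arrays were alike in detection, with 54.6% of spots well above background in GFP cells and 56.6% in HES1 cells. Signals below are scanner units scaled so that the 75th percentile of each array was 1057, and they serve to compare the arrays for 1 gene, not one gene with another. The Hes1 probe read 10.2 in the GFP sample and 10.3 in the HES1 sample, neither well above background, and so does not check the labels. Marker lists are given with the sum of their signals, which includes probes not well above background and is set by the brightest genes. Of 12 chondrocyte markers, 8 were measured, with a summed signal over the list of 54937 in the GFP sample and 43945 in the HES1 sample, while Matn1, Matn3, Hapln1 and Cnmd were not well above background in either sample. Of 10 neuron markers, 8 were measured, 5 of them with a log2 difference above 0, and Stmn2 and Nefl were not well above background. At 2-fold 3 were higher in the HES1 sample (37.5%, against 11.1% of all genes) and 1 was lower (12.5%, against 4.95%). Of the higher ones Rbfox3 and Nefm were not well above background in GFP cells and were at least 1.06-fold and at least 1.79-fold higher, so that by these bounds only Tubb3 passed 2-fold (12.5%, against 9.49%). The summed signals of the neuron list were 40888 and 23469, a fall carried by Snap25 (35679 and 16524), and without Snap25 they were 5208 and 6945. The skeletal muscle markers Myod1, Myog, Ckm, Actn2, Ttn and Des were not well above background, and 2 of 8 in that list were measured (summed signals 1169 and 1031). Of 4 smooth muscle markers 3 were measured (summed signals 44028 and 39592), and Myh11 was not well above background. Of 6 macrophage markers 5 were named on the array and 2 were measured (summed signals 2076 and 2140). Of 5 cardiac muscle markers 4 were measured, with summed signals of 482 and 1076, and Ryr2 was not well above background. That rise was carried by Tnnt2 (138 and 806), and without Tnnt2 the sums were 343 and 270. Of 6 osteoblast markers 5 were measured, with 16086 and 8429, all 5 with a log2 difference below 0 and 3 at least 2-fold lower (60.0%, against 4.95%), and Dmp1 was not well above background. The part of other cell types in the differences below was not tested, and in such bulk RNA fewer cells of a type and less RNA per cell cannot be told apart.

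Ion channel genes differed in both directions and in few members. At a difference of at least 2-fold, 6 of the 44 measured members were higher in the HES1 sample (13.6%) and 4 were lower (9.09%). Over all 14273 measured genes the shares were 11.1% higher and 4.95% lower. In both directions together, 10 members (22.7%) passed against 16.0% of all genes. The higher members were Kcnab1, Kcnf1, Kcnu1, Kcne3, Kcnq1 and Kcnt2, and the lower ones were Scn3a, Kcnmb4, Kcnn2 and Kcnip3. The median log2 difference, HES1 minus GFP, was 0.14 over the 44 members and -0.06 over all measured genes. It was -0.0040 over the 35 members measured on both arrays, against -0.089 over all such genes. After quantile normalization it was -0.01 over the members and -0.07 over all measured genes.

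Where only 1 of the 2 arrays had a signal well above background, the text gives a bound, a fold no larger than the measured one. It divides the bright signal by the larger of 2 values from the dim array. These are the dim probe's signal and the smallest signal there that was well above background (38.1 among GFP signals and 39.0 among HES1 signals). The bound, worded as "at least" for single genes, is not a strict minimum. It leaves out the scanner's error, and a probe above that smallest signal can still fail detection, as Kcna6 did in GFP cells (40.4). By bounds, 3 members were at least 2-fold higher (6.82%, against 9.49% of all genes) and 4 lower (9.09%, against 4.47%), together 15.9% against 14.0%, so the members' share stood near the background. Among the 35 members measured on both arrays, 2 were higher (Kcnab1 and Kcnf1, 5.71% against 7.04% of all such genes) and 3 lower (Scn3a, Kcnmb4 and Kcnip3, 8.57% against 4.41%). Together they made 14.3%, against 11.5%. A normexp background correction of the spot medians with quantile normalization left 1 higher (Kcnab1, 2.27% against 5.96% of all genes) and 2 lower (Scn3a and Kcnmb4, 4.55% against 2.38%).

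**Figure D1:**
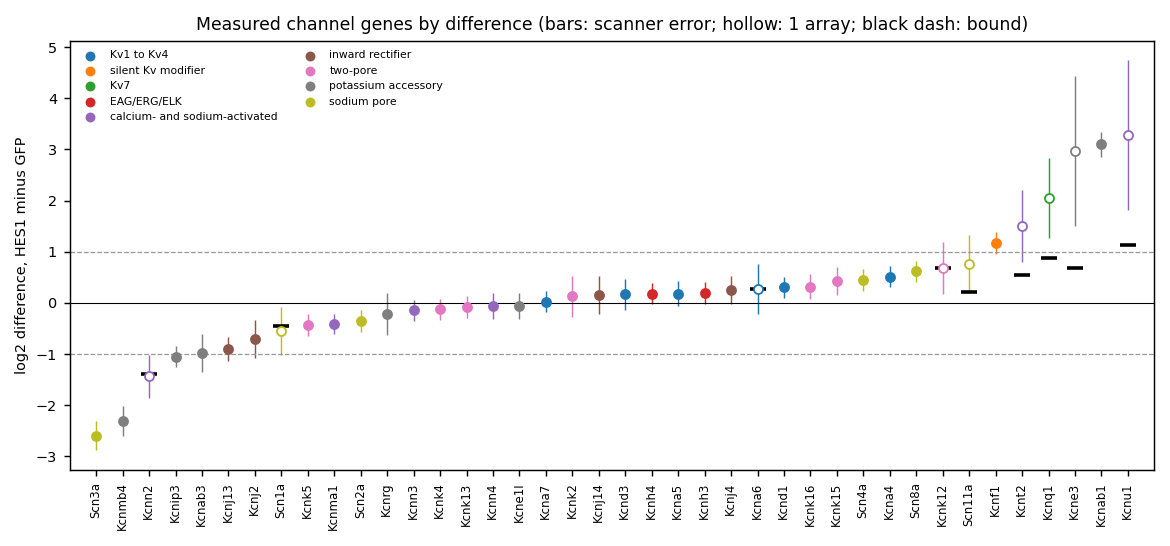
Log2 difference (HES1 minus GFP) of 40 of the 44 measured channel genes, in order, coloured by subgroup. Bars are the scanner software's error, hollow points were well above background on 1 array and their black dashes are the bounds, and dashed lines mark 2-fold; 30 of the genes plotted lie between them, and the hollow points for Kcnt2, Kcnq1 and Kcne3 lie above the upper line while their bounds lie below it.

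The family sat low in the signal range, where differences are less precise. The mean of the 2 signals had a median of 145 over the measured members and 1659 over all measured genes, and it was under 200 for 26 members (59.1%) against 21.9% of all genes. Below that level 7 of 26 members passed 2-fold (26.9%), against 32.9% of all genes there. At or above it 3 of 18 did (16.7%), against 11.3%. These shares, which rest on few members, lay on either side of the background. The scanner's error of the log2 difference had a median of 0.26 over the members and 0.20 over all measured genes. Of the 44 differences 18 were no larger than their own error, and over all measured genes 4712 of 14273 were.

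**Figure D2:**
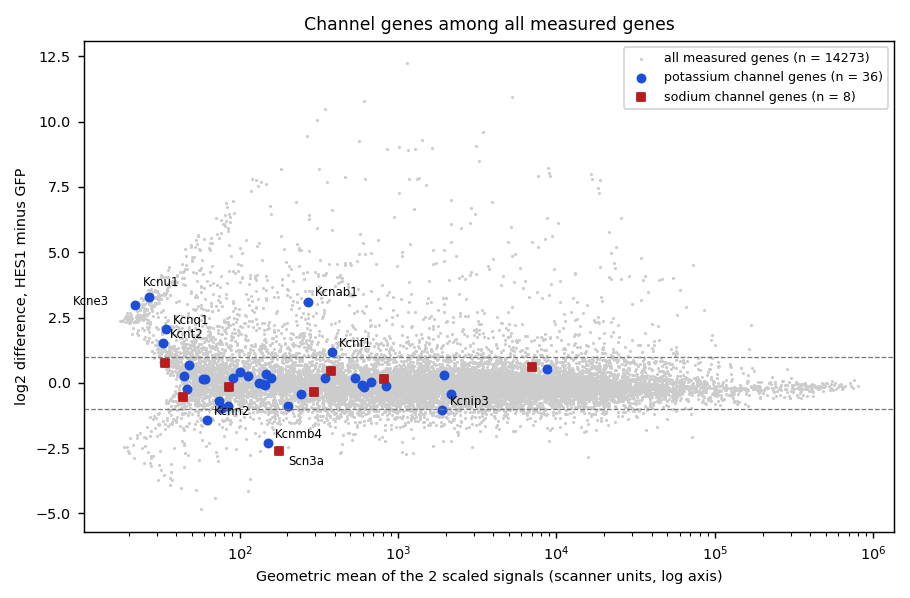
Log2 difference (HES1 minus GFP) against the geometric mean of the 2 scaled signals (log axis) for all 14273 measured genes (grey), with the 36 potassium channel genes (blue circles) and 8 sodium channel genes (red squares). The 10 channel genes past 2-fold (dashed lines) are named, and Kcne3, Kcnu1, Kcnq1 and Kcnt2 lie at the dim end.

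The highest and the lowest difference among potassium channel genes measured on both arrays, Kcnab1 and Kcnmb4, belonged to accessory subunits. Of 17 accessory genes 7 were measured. Of these, 2 were higher (28.6%, against 11.1% of all genes), 1 of them by bounds (14.3%, against 9.49%), and 2 were lower (28.6%, against 4.95%). Kcnab1 encodes a beta subunit that binds the inner side of Kv1 pores and speeds their inactivation. Its signal was 92.0 in the GFP sample and 790 in the HES1 sample, 8.59-fold higher, with a log2 difference of 3.10 and a scanner error of 0.24. The HES1 sample was the higher one under all 10 alternatives, some of which could not change the value. The smallest difference was 2.03 after normexp, and a single probe read the gene. The related beta subunit Kcnab3 went the other way within 2-fold, at 109 and 55.3 (log2 difference -0.98, error 0.36), and Kcnab2 was not well above background in either sample.

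Because HES1 is a DNA-binding repressor, promoters from the RefSeq promoter table (GRCm38.p6) are shown for 3 members past 2-fold that were measured on both arrays, Kcnab1, Kcnmb4 and Kcnf1. Kcnab1 has 3 start sites in the table, and the 250 bases before each are printed 5′ to 3′ along the gene's strand. Capitals mark 3 motifs searched on both strands: the N box CACNAG and the class C site CACGNG, both bound by HES proteins, and a core of the interferon-stimulated response element, GAAA followed by any 2 bases and GAAA again. Which start site the array's probe reads was not tested.
Kcnab1, upstream start, chr3:64948962-64949211 (+ strand): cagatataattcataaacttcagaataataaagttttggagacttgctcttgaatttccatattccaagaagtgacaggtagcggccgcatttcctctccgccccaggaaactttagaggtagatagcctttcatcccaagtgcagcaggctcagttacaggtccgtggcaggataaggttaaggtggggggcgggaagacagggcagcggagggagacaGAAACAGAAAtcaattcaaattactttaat
Kcnab1, middle start, chr3:65108764-65109013 (+ strand): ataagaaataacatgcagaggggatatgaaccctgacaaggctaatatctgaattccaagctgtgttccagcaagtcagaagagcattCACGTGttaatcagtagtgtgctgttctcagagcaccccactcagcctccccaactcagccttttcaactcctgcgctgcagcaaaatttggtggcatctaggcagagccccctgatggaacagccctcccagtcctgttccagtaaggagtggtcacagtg
Kcnab1, downstream start, chr3:65187853-65188102 (+ strand): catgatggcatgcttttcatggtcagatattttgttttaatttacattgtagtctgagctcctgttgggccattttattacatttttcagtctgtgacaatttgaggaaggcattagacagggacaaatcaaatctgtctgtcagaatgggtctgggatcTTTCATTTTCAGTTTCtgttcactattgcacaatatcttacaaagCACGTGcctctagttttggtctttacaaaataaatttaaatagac
In these windows the response element core stood before the upstream start 1 time and before the downstream start 2 times, the 2 matches overlapping by part of their letters. CACGNG stood 1 time each before the middle and the downstream start, and CACNAG stood before none of the 3. Over all 32851 promoters of the table, windows of the same length held CACNAG in 36.7%, CACGNG in 23.5% and the response element core in 2.98%. The 107 promoters of the 80 channel genes found in the table held them in 41.1%, 17.8% and 5.61%. For the 42 promoters of the 32 measured channel genes the shares were 40.5%, 16.7% and 7.14%. The response element core was in 6 of the 107 and 3 of the 42 promoters, and 2 of these were starts of Kcnab1. Starts of 1 gene are not independent, and these counts are too small to show a difference from all promoters. For the members past 2-fold, 11 windows of 6 genes were used here, of which 3 held CACNAG, 2 CACGNG and 2 the response element core. No window was used for Scn3a, Kcnn2, Kcnu1 and Kcnq1, so Kcnmb4 and Kcnip3 were the only lower genes covered. The windows with CACNAG were those of Kcnf1 and Kcnt2 and 1 of 2 of Kcne3, all higher by the measured difference but Kcne3 and Kcnt2 under 2-fold by bounds, while CACGNG and the response element core were found before Kcnab1 alone among these genes. A match describes the letters and is neither a binding site nor a cause.

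Kcnmb4 encodes the beta4 subunit of the large-conductance calcium-activated potassium channel BK, whose pore is Kcnma1. Its brighter probe read 337 in the GFP sample and 67.7 in the HES1 sample, 4.98-fold lower (log2 difference -2.32, error 0.29). Its other probe read 52.2 and 43.4, a log2 difference of -0.27 within its error of 0.42, so the probes shared a direction but not a size. With the median of both probes the difference was -1.29. The pore gene Kcnma1 stayed within 2-fold by all 3 of its probes, with signals of 2484 and 1870 by the brightest and log2 differences of -0.41, -0.42 and -0.61. The other BK beta subunits Kcnmb1, Kcnmb2 and Kcnmb3 and the antisense gene Kcnmb4os1 were not well above background in either sample.

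The single Kcnmb4 window in the table, shown in contrast to those of Kcnab1, held none of the 3 motifs.
Kcnmb4, chr10:116473524-116473773 (- strand): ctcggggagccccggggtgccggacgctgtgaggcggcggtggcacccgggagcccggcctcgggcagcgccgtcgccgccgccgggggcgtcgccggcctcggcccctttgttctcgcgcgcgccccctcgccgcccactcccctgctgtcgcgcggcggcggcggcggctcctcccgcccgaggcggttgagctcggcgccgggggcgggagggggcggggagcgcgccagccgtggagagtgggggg
Kcnip3 encodes a calcium-binding protein, also known as calsenilin or DREAM, that modulates Kv4 channels. It read 2750 in the GFP sample and 1325 in the HES1 sample, 2.07-fold lower (log2 difference -1.05, error 0.20). Its second probe gave 264 and 148, a log2 difference of -0.84, and the gene came within 2-fold after a lowess fit (-0.91), after normexp (-0.98) and by the median over probes (-0.94). The 3 Kcnip3 windows in the table also held none of the motifs. The relatives Kcnip1, Kcnip2 and Kcnip4 were not well above background.

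Kcne3 encodes a single-pass subunit that keeps the Kcnq1 pore open in epithelia. It was not well above background in GFP cells (7.77) and read 60.9 in the HES1 sample, at least 1.60-fold higher. The second Kcne3 probe was not well above background in either sample (10.6 and 40.1). Kcnq1, the pore it joins and the only measured Kv7 gene of 5, had the same pattern, with 16.9 in the GFP sample, not well above background, and 70.0 in the HES1 sample. That made Kcnq1 at least 1.83-fold higher, and both genes were under 2-fold by bounds. Kcnq3 and Kcnq5, and the noncoding Kcnq1ot1 that overlaps Kcnq1 on the opposite strand, were not well above background. Among the remaining accessory genes, Kcne1l had a log2 difference of -0.06 (144 and 138). Kcnrg, which interferes with the assembly of Kv pores, had one of -0.22 (50.2 and 43.1). Both lay within their errors, while Kcne1, Kcne2 and Kcne4 were not well above background.

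**Figure D3:**
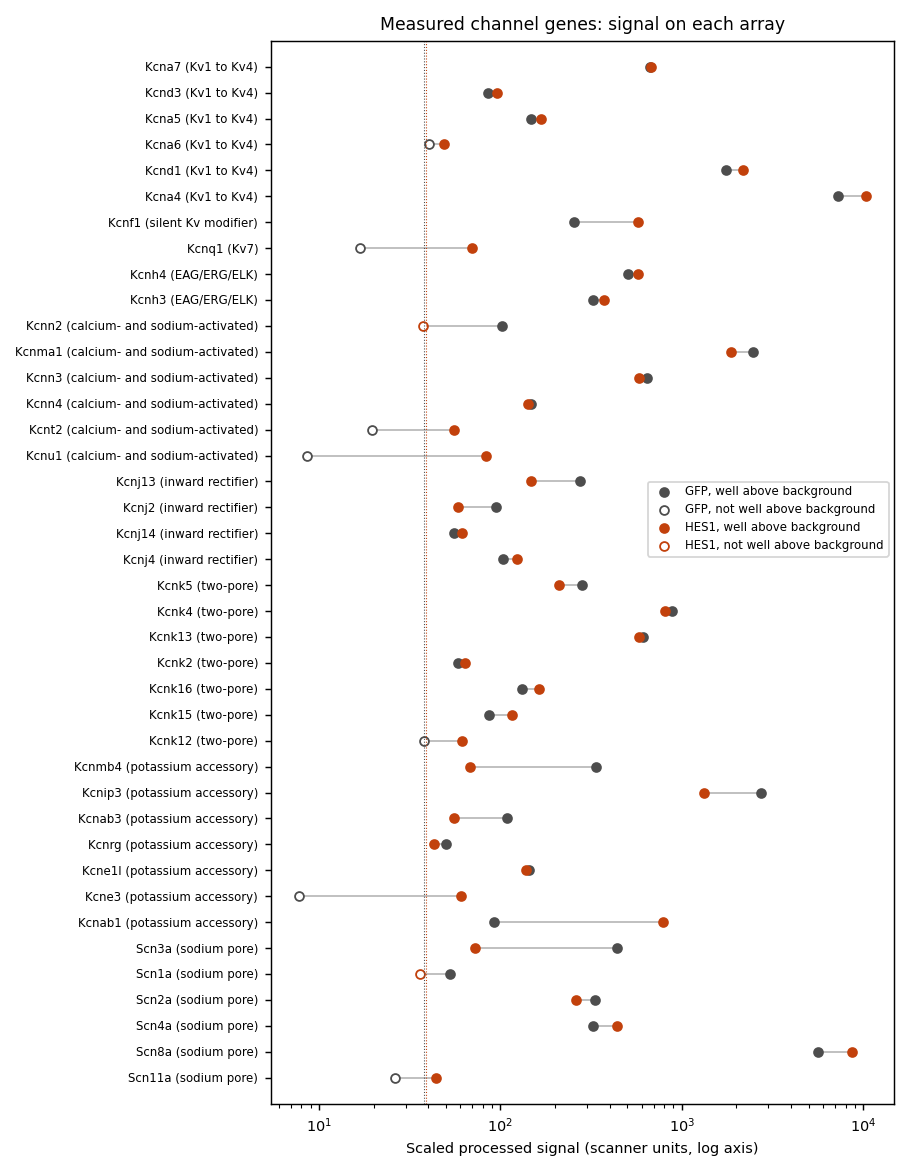
Scaled processed signal (log axis) of 40 of the 44 measured channel genes in the GFP sample (grey) and the HES1 sample (orange), by subgroup. Hollow points were not well above background, and dotted lines mark the lowest signal well above background on each array (38.1 and 39.0); 31 of the genes plotted have both points filled, and the long gaps between 2 filled points belong to Kcnab1, Scn3a and Kcnmb4.

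The Kv1 to Kv4 pore genes, which carry the A-type and delayed rectifier currents, all stayed within 2-fold. So did 11984 of all 14273 measured genes. Of 17 Kv1 to Kv4 genes on the array 8 were measured, 6 of them with a log2 difference above 0. Over all measured genes 6426 differences were above 0. Kcna4, which encodes a rapidly inactivating Kv1 pore, read 7287 in the GFP sample and 10376 in the HES1 sample, a log2 difference of 0.51 against an error of 0.20. Kcnd1, a Kv4 pore gene, read 1763 and 2185 (0.31, error 0.20). These 2 lay above their errors and below 2-fold. After quantile normalization the split over all members was 6 higher (13.6%, against 10.5% of all genes) and 6 lower (13.6%, against 5.51%), and Kcnab3 was among the lower at -1.14.

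Kcna5 had a log2 difference of 0.18, Kcnd3 one of 0.17 and Kcna7 one of 0.02, each within its error. The second Kcna7 probe gave -0.52 (180 and 125), beyond its error of 0.25, so the probes of this gene differed. Kcna6 was well above background in HES1 cells only (40.4 and 48.7). The Kv1 genes Kcna1, Kcna2, Kcna3 and Kcna10 were not well above background. Nor were Kcnb2, Kcnc1, Kcnc2, Kcnc4, Kcnd2 and the antisense gene Kcnd3os.

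Of 10 silent Kv genes, whose products form no channel alone and modify Kv2 pores, Kcnf1 was the only one measured. It read 255 in the GFP sample and 575 in the HES1 sample, 2.25-fold higher (log2 difference 1.17, error 0.21). The second probe gave nearly the same difference, 1.12 (201 and 435), a spread between probes of 0.06. The difference was under 2-fold after normexp (0.91). The Kcnf1 window, shown because 2 probes gave like differences for this gene, held CACNAG 2 times and neither of the other motifs.
Kcnf1, chr12:17176889-17177138 (- strand): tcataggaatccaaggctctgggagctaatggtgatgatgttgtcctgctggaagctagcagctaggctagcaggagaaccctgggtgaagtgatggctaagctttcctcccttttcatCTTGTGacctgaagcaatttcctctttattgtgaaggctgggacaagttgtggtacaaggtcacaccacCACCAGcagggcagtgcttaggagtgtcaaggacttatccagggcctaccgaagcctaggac
Kcng1 to Kcng4, Kcns1 to Kcns3, Kcnv1 and Kcnv2 were not well above background in either sample. Of the 8 EAG, ERG and ELK genes, Kcnh4 (503 and 570) and Kcnh3 (325 and 371) were measured, both ELK members, with log2 differences of 0.18 and 0.19 inside their errors of 0.21. The cardiac ERG gene Kcnh2 and Kcnh1, Kcnh5, Kcnh6, Kcnh7 and Kcnh8 were not well above background.

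The calcium- and sodium-activated genes, with the related Kcnu1, were the potassium pore group with the largest measured share, 6 of 8. They held 2 higher members (33.3%, against 11.1% of all genes), 1 of them by bounds (16.7%, against 9.49%), and 1 lower (16.7%, against 4.95%). Kcnn2, a small-conductance calcium-activated channel, was read by 1 probe, with 7 spots left after those with an outlier flag were dropped. Of the 7, the GFP spots ran from 82.1 over a median of 103 to 149, and the HES1 spots from 29.7 over 37.2 to 49.0. The log2 difference was -1.44, and -1.53 with flagged spots kept. How far the spots of other probes part between the arrays was not tested. The probe was not well above background in HES1 cells and the gene was at least 2.62-fold lower, with a log2 difference of -0.51 after normexp. Spots of 1 array measure technical error and are not replicates. Its relatives differed less, with Kcnn3 at 639 and 579 (log2 difference -0.14, second probe 0.06) and Kcnn4, the intermediate-conductance channel, at 148 and 141 (-0.07). Kcnn1 was not well above background.

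Kcnu1 encodes a pH-sensitive potassium pore best known from sperm. It was not well above background in GFP cells (8.56) and read 83.2 in the HES1 sample, at least 2.18-fold higher. The measured log2 difference of 3.28 carried an error of 1.46, and it was 0.59 after normexp. Kcnt2, a sodium-activated pore, was not well above background in GFP cells (19.6) and read 55.6 in the HES1 sample, at least 1.46-fold higher. The second Kcnt2 probe was not well above background in either sample (10.9 and 20.7), nor was its relative Kcnt1 (37.1 and 31.3).

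Inward rectifiers, which pass potassium best near the resting potential, were seen sparsely, with 4 of 15 measured and none past 2-fold. Over all measured genes 16.0% passed 2-fold. Kcnj13 read 276 in the GFP sample and 148 in the HES1 sample (log2 difference -0.90, error 0.24), and its second probe gave -0.52 (129 and 90.4). Kcnj2, the classical strong inward rectifier of heart and muscle, read 94.7 and 58.2 (-0.70, error 0.37). These 2 were lower beyond their errors, while Kcnj14 (0.16) and Kcnj4 (0.26) lay within theirs. A second Kcnj14 probe, well above background in HES1 cells only, read 30.4 and 50.5. Kcnj8 and Kcnj11, the pores of ATP-sensitive channels, and Kcnj1, Kcnj3, Kcnj5, Kcnj6, Kcnj9, Kcnj10, Kcnj12, Kcnj15 and Kcnj16 were not well above background.

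K2P genes, which carry background potassium currents, all lay within 2-fold, with 7 of 14 measured and log2 differences from -0.43 to 0.69. Within 2-fold also lay 11984 of all 14273 measured genes. Kcnk4 and Kcnk2 encode the stretch-sensitive channels TRAAK and TREK-1. Kcnk4 read 878 in the GFP sample and 804 in the HES1 sample (-0.13, and 0.03 after a lowess fit), and Kcnk2 read 58.3 and 63.8 (0.13), each within its error. Kcnk5, an alkaline-activated channel, was lower beyond its error at 283 and 211 (-0.43, error 0.21). Kcnk15 (0.43, error 0.27) and Kcnk16 (0.32, error 0.25) were higher beyond theirs, and Kcnk13 was at -0.08 (611 and 579). Kcnk12, well above background in HES1 cells only, read 37.9 and 61.2, at least 1.60-fold higher. Kcnk1, Kcnk3, Kcnk6, Kcnk7, Kcnk9, Kcnk10 and Kcnk18 were not well above background.

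Of the sodium channel genes 8 of 12 were measured (66.7%, beside 36 of 97 potassium channel genes, 37.1%), and 1 of the 8 passed 2-fold (12.5%, against 16.0% of all genes). Scn3a, a pore gene of embryonic neurons, read 438 in the GFP sample and 72.3 in the HES1 sample, 6.05-fold lower (log2 difference -2.60, error 0.28). A second probe read 397 and 27.4, was not well above background in HES1 cells and was at least 10.2-fold lower, while the third was not well above background in either sample (10.2 on both). The gene was at least 2-fold lower under all 10 alternatives, some of which could not change the value. Its log2 difference ran from -3.23 by the median over probes to -1.44 after normexp.

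The other sodium pores stayed within 2-fold. Scn8a, the main pore of nodes of Ranvier, read 5652 in the GFP sample and 8661 in the HES1 sample (0.62, error 0.20), by 1 of 3 probes, the others being not well above background. Scn4a of skeletal muscle read 323 and 441 (0.45, error 0.21). Scn8a and Scn4a were thus higher beyond their errors, in the direction opposite to Scn3a. Scn2a, a neuronal pore, showed how far probes of a gene can part, with log2 differences of -0.35, 0.36 and 0.13 from 3 measured probes. Scn1a was well above background in GFP cells only (52.9 and 36.2) and Scn11a, a pore of sensory neurons, in the HES1 sample only (26.2 and 44.3). Scn7a and Scn10a were not well above background. Of the beta subunits, which tune the gating of the pore, Scn2b and Scn4b were not well above background.

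Probes give a further measure of technical spread. Of the 151 probes of the 109 members, 56 were measured in this sense, and 10 genes were read by more than 1 of these. In 7 of the 10 all measured probes had the same sign, the exceptions being Kcna7, Kcnn3 and Scn2a, whose differences lay within 2-fold. The spread between the probes of a gene had a median of 0.46 on the log2 scale, from 0.06 for Kcnf1 to 2.05 for Kcnmb4. Of the 4 such genes called by their brightest probe, Kcnf1 and Scn3a passed 2-fold by both measured probes. Kcnip3 and Kcnmb4 did so by 1 of 2. Probes that were not measured are left out of this comparison. Among them were second probes of Kcnk4 (15.9 and 31.1), Kcnh4 (9.23 and 9.39), Kcna5 (9.33 and 9.28) and Kcne1l (9.73 and 9.79).

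**Figure D4:**
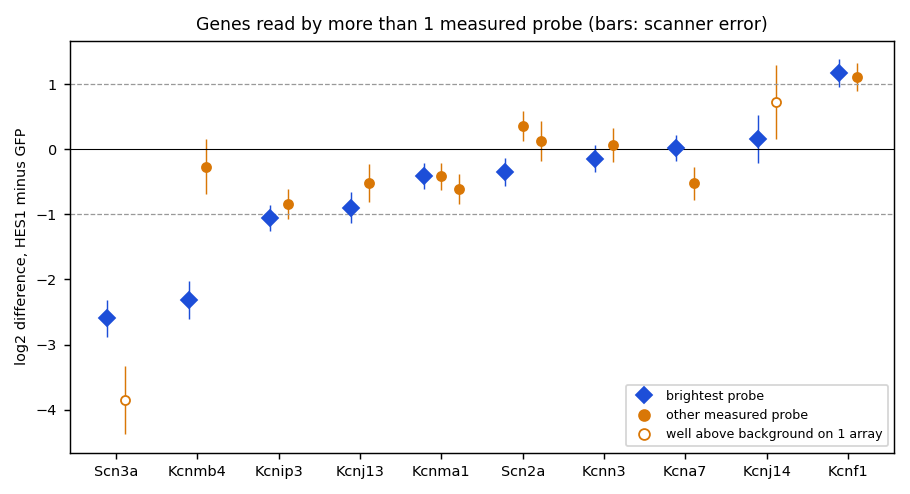
Log2 difference (HES1 minus GFP) by probe for the 10 channel genes with more than 1 measured probe; blue diamonds are the brightest probe, orange circles the others, hollow symbols were well above background on 1 array, and bars are the scanner's error. The probes of Kcnf1 differ by 0.06 and those of Kcnmb4 by 2.05, and dashed lines mark 2-fold.

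Other genes of sodium and potassium transport were read from a list of pumps, cotransporters, exchangers, related channels and channel regulators, of which 56 were named on the array. Of 37 measured, 7 were at least 2-fold higher, also by bounds, and 1 was lower. The 7 make 18.9% of the list, against 11.1% higher over all genes and 9.49% by bounds, the lower gene makes 2.70% against 4.95%, and the median log2 difference was 0.17 against -0.06. The list was chosen with earlier results of these data known, so these shares describe it and do not test it. Sgk1, a kinase that raises the surface level of several ion channels and transporters, read 8376 in the GFP sample and 41125 in the HES1 sample, 4.91-fold higher. Nedd4l, a ubiquitin ligase that removes sodium channels from the membrane and is itself a target of Sgk1, was 2.83-fold higher at 928 and 2628. Its second probe was well above background in HES1 cells only (49.0 and 99.4).

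Abcc8, the sulfonylurea receptor of ATP-sensitive potassium channels, was 2.69-fold higher (321 and 865), although neither of its pores Kcnj8 and Kcnj11 was well above background. Fxyd2, a regulator of the sodium pump, was 3.27-fold higher (88.5 and 289). Second probes of Abcc8 (10.5 and 461) and Fxyd2 (10.5 and 143) were well above background in HES1 cells only, so the probes shared a direction but not a size. The pump subunit Atp1b2 and the pacemaker channel gene Hcn3 were not well above background in GFP cells, and were at least 3.01-fold and at least 2.11-fold higher. The pump subunit Atp1b1 stayed within 2-fold (4493 and 3571, -0.33). The seventh higher gene, Slc12a5, passed by its brighter probe (531 and 1148) and not by its second (361 and 353). The lower gene, the sodium-calcium exchanger Slc8a3, was 2.05-fold lower by its brighter probe and at 0.04 by its second. Rest, a repressor of neuronal channel genes in other tissues, read 4086 and 3345 (-0.29).

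Of the 65 members that were not measured, none gives a fold. At the border of detection, Kcnrg was measured at 50.2 and 43.1, while Kcnk9 (31.7 and 39.9) and Kcnj15 (26.0 and 43.2) were not well above background in either sample.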

How the data were processed

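Total RNA of 2 samples was read on single-colour Agilent arrays annotated on mm9, with Cy3-labelled cRNA made from 0.1 µg RNA, per the labels and file headers. The scanner files deposited by the authors hold an intensity per spot, which Agilent Feature Extraction 10.10.1.1 had background-corrected and detrended, as the submitters' processing notes and, per the file headers, the scanner settings record. The deposited value table equals that intensity times 1 factor per array (1.45 and 1.53), which sets both 75th percentiles to 1057.2.

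Processed signals were put on the log2 scale and centred on the 75th percentile of their array (59305 non-control spots). Spots with an outlier flag on either array (1053) were left out, no spot was saturated, and spots of a probe were averaged. Accessions were named through a RefSeq table of GRCm38.p6, used for names only (48.9% of 54948 probes matched). For each gene the brightest probe was used, out of the probes that passed detection on 1 or both arrays. Errors are the scanner's own error model. Since each group holds 1 array, no test was run and precision is limited. The calculation was tested on simulated differences.

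Members and lists were chosen with earlier results of these data known. The rule for named genes was members past 1.7-fold, the brightest per subgroup and the 2 brightest sodium genes. The text adds the other measured members, and Slc12a5, Slc8a3, Rest and Atp1b1 were named after their values were seen. Some members are not reported here by name and are left out of the plots by gene, though all counts include them. Alternatives were quantile, median and lowess (span 0.3) scaling, limma 3.58.1 normexp (offset 50, R 4.3.3, on spot medians because the files hold no spot means), the deposited values, other filters, the median over probes, outliers kept, bounds, and thresholds of 1.5-fold and 3-fold. Python 3.11.15 with statsmodels 0.14.6 was used. Promoter sequences are RefSeq's.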

Additional observations from a re-analysis of the deposited data

How the results depend on the processing

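The counts for channel genes, 6 higher and 4 lower at 2-fold, came to 1 and 2 (2.27% and 4.55%, against 5.96% and 2.38% of all genes) after normexp with quantile normalization, whose offset of 50 shrinks differences of dim genes by construction. They were 10 and 7 over 109 genes with no filter on dim probes (9.17% and 6.42%, against 11.4% and 4.52% of all genes). The higher count was 2 where both arrays had to be well above background (5.71%, against 7.04%) and 3 by bounds (6.82%, against 9.49%). At 1.5-fold the lower count was 8 (18.2%, against 14.6%), and at 3-fold it was 2 (4.55%, against 1.25%). For the list of other transport genes, 7 higher and 1 lower, normexp gave 4 and 0 (10.8% and 0% of the list). A threshold of 1.5-fold gave 12 and 3 (32.4% and 8.11%, against 17.4% and 14.6% of all genes), and one of 3-fold gave 4 and 0 (10.8% and 0%, against 6.99% and 1.25%). The list's lower count was 0 after a lowess fit (3.57% of all genes lower) and by the median over probes (4.81%). That count rested on Slc8a3 alone, which lay close to the threshold, at -1.04 by its brighter probe and 0.04 by its second. The lowess fit moved the median of all genes from -0.06 to 0.08. Of 195 values of the 20 genes named by rule under the alternatives, 177 stayed within the scanner's error of the main value, 18 moved beyond it, and 0 of the called genes changed direction. Many of these values could not move. The deposited values are the same intensity times 1 factor per array. The filters, kept outliers, bounds and probe median left most of the 20 genes unchanged. The 177 is thus not a count of independent checks. Dim signals limit these results, since 7 members were well above background in the HES1 sample only and 2 in the GFP sample only. Over all 14273 measured genes these counts were 925 and 275. No paired analysis was possible because each group holds 1 sample.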
